A study of Mus musculus with 9 samples.

Results

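The nuclear genes of the mitochondrial respiratory chain and of the tricarboxylic acid (TCA) cycle were examined in mouse macrophages. The 50 genes were chosen by name from these pathways, not by their values. They comprise 18 subunits of complex I, 4 of complex II, 6 genes of complex III with cytochrome c, 6 of complex IV, 4 of complex V and 12 TCA cycle enzymes. Of the 12, Idh1 and Mdh1 are forms found outside the mitochondrial matrix. All 50 were among the 15343 genes of the table, and all 50 were among the 13895 genes kept for testing, each with a value of at least 10 in at least 3 libraries.

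RNA was sequenced from primary intraperitoneal macrophages of wild-type mice, the strain written as CF7B1/6. Every library came from cells stimulated for 6 h with 100 ng/ml lipopolysaccharide (LPS), an outer membrane molecule of bacteria that activates TLR4. The LPS group had no pretreatment in its labels. The DHA + LPS group had 100 µM docosahexaenoic acid (DHA), an omega-3 fatty acid, for 1 h beforehand, and the cpdA + LPS group had 10 µM cpdA, the study's compound A, an agonist of the fatty acid receptor Gpr120, for 1 h. Each group had 3 libraries. No unstimulated library was analysed here, so no value below measures the response to LPS itself, and the pretreatment step differs between LPS and the other groups along with the compound. Whether the libraries of a group came from separate mice or cultures is not given, so the p-values measure the spread between these libraries, which may be technical.

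Complex I takes electrons from NADH and complex II from succinate, complex III passes them to cytochrome c, complex IV hands them to oxygen, and complex V uses the proton gradient so formed to make ATP. The TCA cycle oxidises acetyl-CoA in the mitochondrial matrix and supplies the NADH and succinate. Macrophages stimulated with LPS are known for turning towards glycolysis and for withdrawing citrate from the cycle for itaconate and lipid synthesis, which makes these genes of interest in such cells.

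Values are normalized counts, that is read counts divided by 1 size factor per library. Recovered depth ran from 13797079 reads in DHA 1 to 37572822 in cpdA 2. A pair of libraries, LPS 3 and cpdA 3, stood apart from the rest of their groups. Macrophage markers (8 of 9 in the table) summed to 332922 to 585247 in LPS, 562622 to 584779 in DHA + LPS and 386341 to 588638 in cpdA + LPS, lowest in LPS 3 and cpdA 3, and none was at 0. The sum was mostly Lyz2, the lysozyme of myeloid cells, and the other macrophage markers went both ways. In LPS 3 Fcgr1 was at 10269 (4598 and 4159 in LPS 1 and LPS 2) and Cd14 at 20469 (25184 and 25439). In cpdA 3 Csf1r was at 21816 (11559 and 10002 in cpdA 1 and cpdA 2) and Cd14 at 12490 (30931 and 29484). Mesothelial, fibroblast and endothelial markers (10 of 10) summed to 21435 to 33576, 23138 to 25560 and 22829 to 26608 in the same order of groups, highest in LPS 3. The 3 nuclear transcripts found of 12 RNA-quality genes summed to 9729 to 18174, 11266 to 19274 and 12556 to 51046, highest in cpdA 3 with 46514 for Neat1. The summed markers of resident peritoneal macrophages (7 of 7; 8504 to 9490, 6657 to 7278 and 4939 to 7895) and of neutrophils (3 of 6; 7288 to 8530, 5204 to 6516 and 3553 to 6256) were lower in every treated library than in every LPS library. The first sum was mostly Serpinb2 and the second mostly Csf3r, and their other members went both ways: with DHA 4 of the 7 resident macrophage markers were positive, Gata6 among them at 0.43, and S100a8 of the neutrophil list had 71.6 to 255 in LPS and 303 to 381 after DHA. Mast cell, basophil and eosinophil markers (6 of 9) summed to 250 to 319 in LPS, 146 to 167 in DHA + LPS and 165 to 361 in cpdA + LPS. The part of these markers in the results below was not tested. In bulk RNA, fewer cells of a type and less RNA per cell cannot be told apart.

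No gene of the 50 passed the test in any comparison with all 9 libraries (limma on log2 values, Benjamini-Hochberg adjusted p under 0.05 over all 13895 genes). Over all genes, 0.00720% passed for DHA + LPS against LPS, 0.00720% for cpdA + LPS against LPS and 0% for cpdA + LPS against DHA + LPS, so the count of 0 members is near the share among all genes and is no result about these genes. At an unadjusted p under 0.05 there were 5 members for DHA (10% of 50, beside 14.2% of all genes), 3 for cpdA (6% beside 14.6%) and 0 for cpdA against DHA (0% beside 1.02%). The edgeR test on recovered reads also called 0 members in each comparison, beside 0.0216%, 0.00720% and 0% of all genes. DESeq2 called 0 members, beside 2.31%, 3.26% and 0% of the genes to which it gave an adjusted p.

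The changes were small where they could be measured. The median log2 change of the 50 genes was 0.02 for DHA, -0.01 for cpdA and -0.04 for cpdA against DHA, beside -0.00, -0.00 and -0.02 over all genes. With DHA 29 genes had a positive and 21 a negative change, with cpdA 22 and 28, and between cpdA and DHA 13 and 37. The 95% interval of the change lay within 1.5-fold in both directions for 46 of 50 genes with DHA, for 46 with cpdA and for 48 between the compounds. Over all 13895 genes the interval lay within 1.5-fold for 6563, 6452 and 7932, in the same order. The genes whose interval reached past 1.5-fold were Cycs, Idh1, Idh2 and Fh1 for DHA, Cycs, Cox5a, Idh1 and Idh2 for cpdA, and Cycs and Idh1 for cpdA against DHA. The median standard error was 0.11 for the members and 0.18 for all genes. Both comparisons with LPS use the same 3 LPS libraries, so their values are given side by side and not as separate support.

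**Figure D1:**
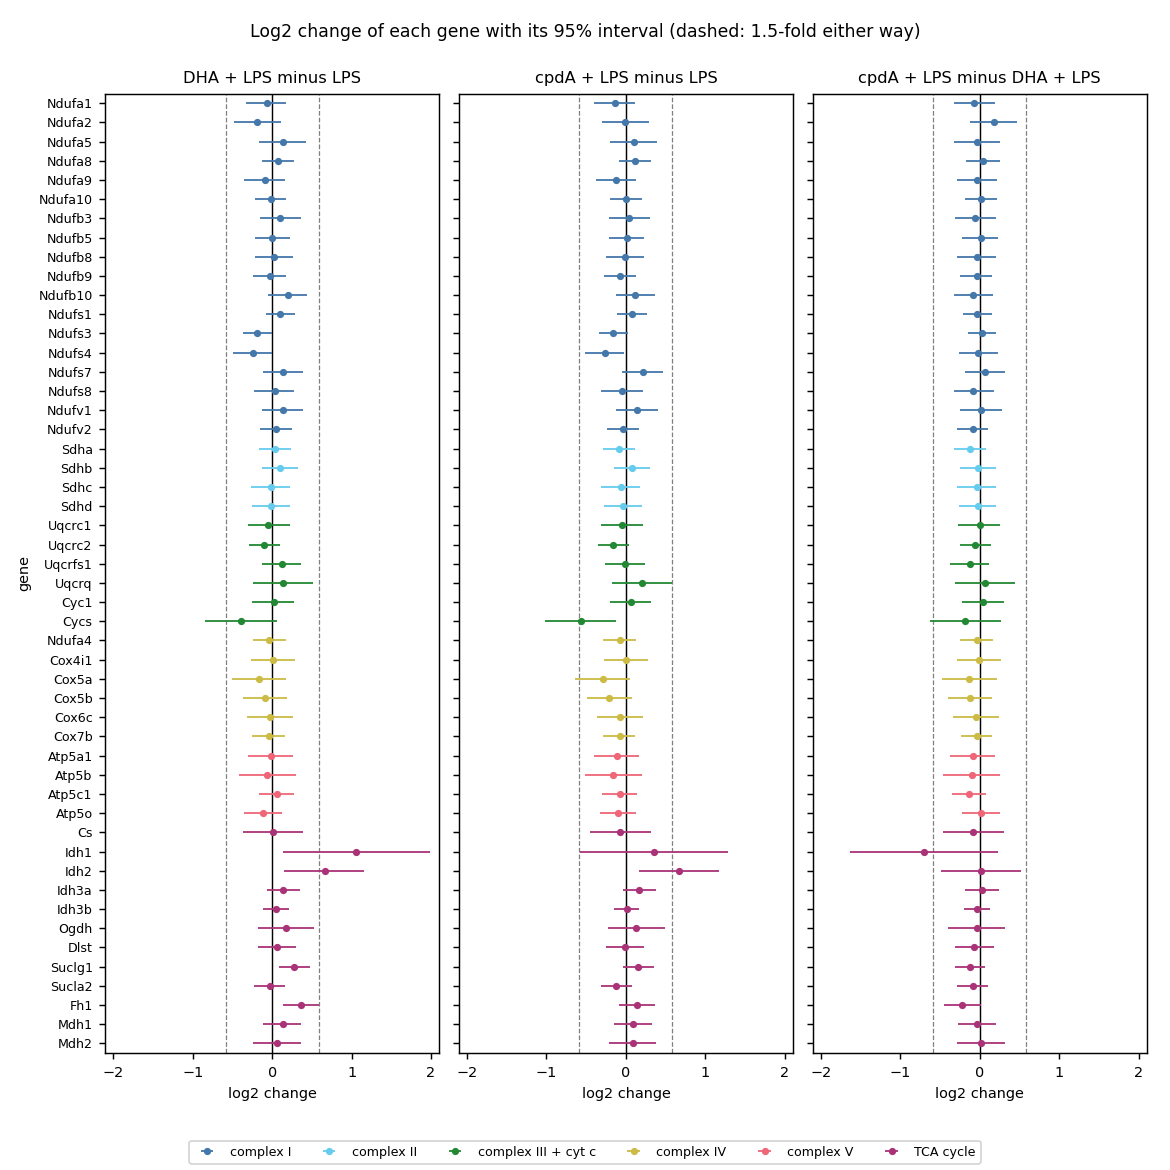
Log2 change of each of the 50 genes (points) with its 95% interval from limma (lines), for DHA + LPS minus LPS, cpdA + LPS minus LPS and cpdA + LPS minus DHA + LPS, coloured by role. Dashed lines mark 1.5-fold in either direction. Most points lie near 0, and the widest intervals are those of Idh1, Idh2 and Cycs.

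Cycs (Entrez 13063), cytochrome c, the mobile carrier between complexes III and IV and a trigger of apoptosis when released, and Idh2 (Entrez 269951), the NADP-linked isocitrate dehydrogenase of the matrix, had the lowest change of the members in both comparisons with LPS and the highest change with cpdA, respectively. They were also the 2 members called in a fit without LPS 3 and cpdA 3. Their promoters are printed for that reason, from RefSeq on build GRCm38.p6, 5′ to 3′ on the strand of the gene, from 250 bases before the transcription start to 50 after it. Cycs is at chr6:50566520-50566819 on the minus strand, and Idh2 at chr7:80115301-80115600 on the minus strand. Capitals mark matches to 5 motifs of factors known for mitochondrial or cyclic AMP-responsive genes.
Cycs: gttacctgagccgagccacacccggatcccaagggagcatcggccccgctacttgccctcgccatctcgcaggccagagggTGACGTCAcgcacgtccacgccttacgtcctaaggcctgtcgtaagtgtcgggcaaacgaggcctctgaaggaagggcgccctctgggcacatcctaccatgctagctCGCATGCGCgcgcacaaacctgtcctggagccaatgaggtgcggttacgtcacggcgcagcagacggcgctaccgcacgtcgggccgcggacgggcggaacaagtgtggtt
Idh2: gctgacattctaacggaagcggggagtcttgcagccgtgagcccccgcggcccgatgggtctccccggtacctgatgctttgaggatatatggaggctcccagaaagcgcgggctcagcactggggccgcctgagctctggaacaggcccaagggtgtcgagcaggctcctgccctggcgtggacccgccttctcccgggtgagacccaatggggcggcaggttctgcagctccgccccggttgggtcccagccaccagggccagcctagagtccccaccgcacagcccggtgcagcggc
The capitals in Cycs are, from the left, TGACGTCA, the cyclic AMP response element (CRE), at bases 82 to 89 of the window, and CGCATGCGC, the NRF1 motif on the opposite strand, at bases 190 to 198. The Idh2 window held none of the 5 motifs. The window was 65% G and C for Cycs and 68.3% for Idh2.

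Of the 50 genes, 39 had a promoter in the RefSeq table, in 47 windows, and 20 of the 39 held at least 1 of the motifs on either strand. The NRF1 motif GCGCANGCG, of the nuclear respiratory factor that binds many respiratory chain promoters, was in 11 of 39 (28.2%), beside 14.2% of the 11451 table genes with a window and 7.03% of all 27025 genes with one. They were Atp5c1, Atp5o, Cycs, Ndufa5, Ndufa8, Ndufb10, Ogdh, Sdha, Sdhd, Sucla2 and Uqcrc1. The CRE motif TGACGTCA was in 5 (12.8%, beside 3.41% of table genes and 2.03% of all), namely Cycs, Mdh2, Ndufa10, Ogdh and Uqcrfs1. The YY1 motif AAGATGGC was in 4 (10.3%, beside 4.87% and 3.19%), namely Ndufa9, Ndufb8, Ndufs4 and Ndufs7. The ETS motif CCGGAAGT was in Dlst and Ndufs3 (5.13%, beside 8.40% and 4.31%). The motif of the estrogen-related receptors (ERR), TCAAGGTCA, was in Sdhd (2.56%, beside 0.306% and 0.466%). CRE and NRF1 matches did not overlap in the Cycs window. A match describes letters, not a bound site, and nothing is drawn from its absence.

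The members differed widely in level. Their mean level over the 9 libraries ran from 248 normalized counts per kb of exon for Fh1 to 8903 for Atp5b, a ratio of 35.9, with a median of 1071. Per kb, the median was highest for complex V (2748) and complex IV (2386) and lowest for complex I (651) and the TCA cycle (814), with 1485 for complex II and 1336 for complex III with cytochrome c. Within a role the highest and lowest gene differed 2.87-fold in complex III with cytochrome c, 3.43-fold in complex II, 6.41-fold in complex V, 7-fold in complex IV, 7.28-fold in complex I and 10.2-fold in the TCA cycle. Lengths are the union of exons over all protein-coding transcripts of a gene in GENCODE M21, which is of another build than the files. Such a union can be longer than the transcript expressed, so these levels and the order of genes and roles are approximate.

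**Figure D2:**
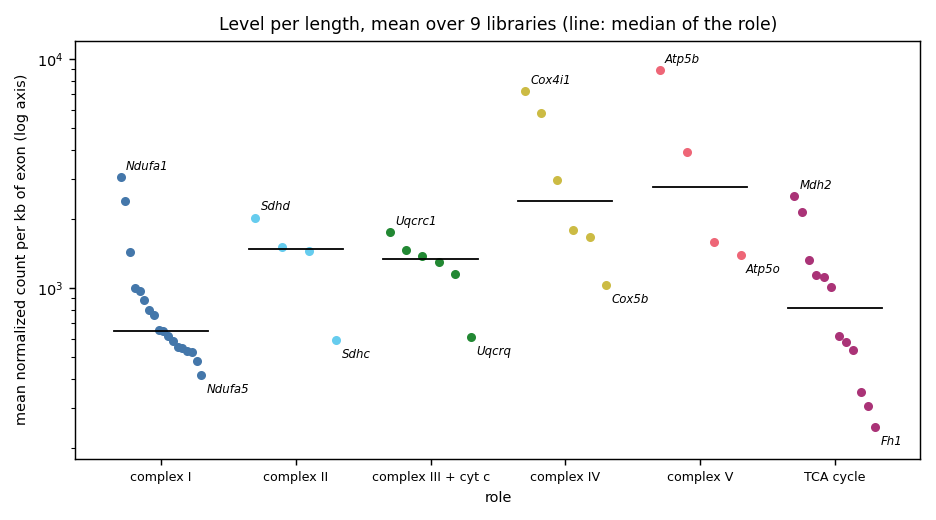
Mean normalized count per kb of exon over 9 libraries for each gene (points, log axis), by role, with the median of each role as a line and the highest and lowest gene named. Atp5b at 8903 and Cox4i1 at 7217 lead, and Fh1 at 248 is lowest.

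From library to library most members hardly moved. The highest value over the 9 libraries was under 1.5 times the lowest for 43 of 50 members (86%), beside 37.7% of the genes kept and 57.2% of the 7124 genes with a mean in the same range. The ratio ran from 1.08 in Idh3b to 5.41 in Idh1. The median SD within a group was 0.13 on the log2 scale for members, 0.22 for all genes and 0.16 for the genes of the same range. The members together made up 0.374% (LPS 3) to 0.422% (DHA 2) of all normalized counts. In cpdA 3 this share was 0.414%, above LPS 1 (0.397%) and LPS 2 (0.400%), though its summed member values, 101783, were the lowest. How low cpdA 3 stands in these genes thus depends on the scaling.

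LPS 3 and cpdA 3 also stood apart in these genes. In LPS 3, 43 of 50 genes lay under their own mean over the 9 libraries, 19 of them at their lowest value, and in cpdA 3, 45 lay under it, 24 at their lowest. The median deviation was -0.11 in LPS 3 and -0.14 in cpdA 3, and -0.02 to 0.06 in the other 7 libraries. For 45 other nuclear genes of the same complexes and of the cycle it was -0.14 in LPS 3 and -0.14 in cpdA 3. The median of all genes lay between -0.01 and 0.02. The size factors hold that median near 0 in every library, so it cannot show whether the shift is particular to these genes. The 7 genes above their mean in LPS 3 were Atp5o, Cycs, Ndufs3, Ndufs4, Sdha, Sucla2 and Uqcrc2, and the 5 above it in cpdA 3 were Idh1, Idh2, Mdh1, Ndufs1 and Ndufs7.

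**Figure D3:**
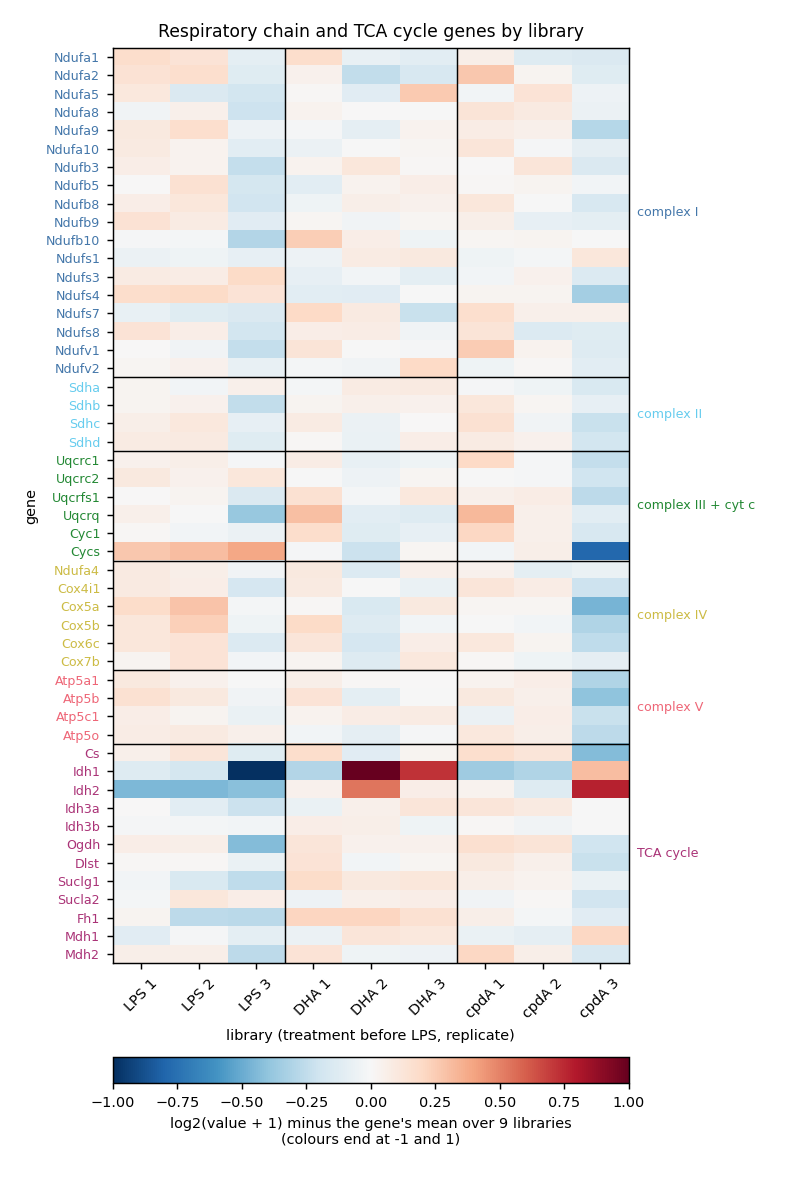
Log2(value + 1) of each of the 50 genes minus its mean over the 9 libraries, by gene (rows, grouped by role) and library (columns, grouped by treatment), with colours ending at -1 and 1. Most cells are pale, LPS 3 and cpdA 3 are mainly blue, and Idh1, Idh2 and Cycs have the strongest colours.

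Complex I, the NADH dehydrogenase, had a median change of 0.03 with DHA and -0.00 with cpdA over its 18 genes, from -0.24 to 0.20 and from -0.26 to 0.21. Ndufs4, an accessory subunit needed for assembly of the NADH-binding arm, had normalized counts of 1010, 1021 and 981 in the 3 LPS libraries (here and below in the order of their replicate numbers), 829, 825 and 888 after DHA and 912, 910 and 705 after cpdA. All 6 treated libraries lay under all 3 LPS libraries, and cpdA 3 was lowest. The change was -0.24 (SE 0.11; limma adjusted p = 0.353) with DHA and -0.26 (SE 0.11; limma adjusted p = 0.317) with cpdA, the latter -0.14 (SE 0.08; limma adjusted p = 0.532) without cpdA 3. Ndufs3, a core subunit of the arm that carries electrons to ubiquinone, had 975, 970 and 1051 in LPS, 869, 903 and 860 in DHA + LPS and 904, 951 and 838 in cpdA + LPS. Its treated libraries also lay under all LPS libraries, with a change of -0.19 (limma adjusted p = 0.349) with DHA and -0.16 (limma adjusted p = 0.405) with cpdA.

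Ndufs7, another core subunit that holds an iron-sulfur cluster, had 601, 584 and 573 in LPS, 727, 677 and 543 in DHA + LPS and 714, 657 and 657 in cpdA + LPS. The cpdA libraries lay above LPS, by 0.21 (SE 0.11; limma adjusted p = 0.427), while DHA 3 lay below it. Ndufa2, an accessory subunit, had 1507, 1534 and 1258 in LPS, 1407, 1149 and 1220 in DHA + LPS and 1644, 1390 and 1251 in cpdA + LPS. Its groups overlapped, with a change of -0.19 with DHA and of 0.18 between cpdA and DHA (limma adjusted p = 0.529 and 1). Ndufs1, the largest core subunit and the complex I gene with the highest mean value, had 1494 ± 19.7 in LPS, 1609 ± 90.5 in DHA + LPS (SD, n = 3) and 1512 to 1686 in cpdA + LPS. Its change was 0.10 with DHA and 0.08 with cpdA (limma adjusted p = 0.571 and 0.695).

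Complex II, the succinate dehydrogenase, is the enzyme shared by the chain and the cycle. Sdha, its flavoprotein, had 4475, 4316 and 4538 in LPS, 4338, 4654 and 4676 in DHA + LPS and 4355, 4263 and 3944 in cpdA + LPS. The groups overlapped, with changes of 0.04 with DHA, -0.09 with cpdA and -0.12 between cpdA and DHA (limma adjusted p = 0.879, 0.685 and 1). Sdhb, its iron-sulfur subunit, had 1690, 1709 and 1396 in LPS, where LPS 3 was the lowest of all 9 libraries. It had 1688, 1716 and 1707 in DHA + LPS, a change of 0.10 (limma adjusted p = 0.671). The membrane anchors Sdhc and Sdhd had changes of -0.02 and -0.01 with DHA and -0.06 and -0.04 with cpdA.

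In complex III and cytochrome c, Cycs had 5404, 5535 and 5840 in LPS, 4445, 3862 and 4533 in DHA + LPS and 4389, 4654 and 2603 in cpdA + LPS. Every treated library lay under every LPS library, and cpdA 3 was far the lowest. The change was -0.39 (SE 0.20; 95% interval -0.84 to 0.06; limma adjusted p = 0.404) with DHA and -0.57 (SE 0.20; 95% interval -1.02 to -0.12; limma adjusted p = 0.263) with cpdA. Without cpdA 3 the cpdA change was -0.31 (SE 0.10; limma adjusted p = 0.306), which is over 1.5 times smaller. Between cpdA and DHA the change was -0.18, and 0.08 without cpdA 3, both with overlapping groups. The genome holds processed pseudogenes of Cycs, and how the counting treated reads shared with them is not given, so its level is uncertain.

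The other genes of complex III moved less. Uqcrc2, a core protein that faces the matrix, had 2795, 2695 and 2818 in LPS, 2597, 2520 and 2645 in DHA + LPS and 2606, 2589 and 2270 in cpdA + LPS. The treated libraries lay under LPS, with a change of -0.10 (SE 0.09; limma adjusted p = 0.619) with DHA and -0.16 (SE 0.09; limma adjusted p = 0.425) with cpdA. Uqcrfs1, the Rieske iron-sulfur protein, had a change of 0.12 with DHA and -0.12 between cpdA and DHA, and Uqcrq, a small subunit, one of 0.07 between cpdA and DHA, none past the test (limma adjusted p = 0.645, 1 and 1). Cyc1, the cytochrome c1 that reduces cytochrome c, had 0.02 and 0.06 with the compounds.

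Complex IV, cytochrome c oxidase, had negative changes in 5 of 6 genes with DHA (median -0.04) and in 5 of 6 with cpdA (median -0.08). Cox5a, a nuclear-encoded subunit that faces the matrix, had 4218, 4525 and 3652 in LPS, 3745, 3334 and 3974 in DHA + LPS and 3761, 3760 and 2687 in cpdA + LPS. LPS 3 lay among the treated libraries, so the groups overlapped, while each cpdA library lay under the LPS library of the same number. The change was -0.16 (SE 0.15; limma adjusted p = 0.642) with DHA and -0.29 (SE 0.15; limma adjusted p = 0.406) with cpdA, the latter with limma adjusted p = 0.385 under the replicate block and at -0.13 (SE 0.12; limma adjusted p = 0.693) without cpdA 3. Cox4i1, the regulatory subunit with the highest mean value of the complex, averaged 5508 ± 529 in LPS and, with DHA, 5534 ± 307 (SD, n = 3), with changes of 0.01 with DHA and 0.00 with cpdA. Cox5b, a zinc-binding subunit, had -0.12 between cpdA and DHA (limma adjusted p = 1).

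Ndufa4 carries a complex I name but is now assigned to complex IV. It had 1977, 1930 and 1805 in LPS, 1980, 1682 and 1917 in DHA + LPS and 1911, 1735 and 1767 in cpdA + LPS, with changes of -0.04 and -0.08 (limma adjusted p = 0.882 and 0.731). AA467197, the mouse gene of the inflammation-induced counterpart that can replace it, had 10094, 10733 and 4810 in LPS, 6284, 5134 and 6450 in DHA + LPS and 6446, 7476 and 266 in cpdA + LPS. LPS 3 lay under every DHA library, and cpdA 3 was lowest of all. Per kb of exon, AA467197 stood at 5217 to 11641 in LPS, 5568 to 6996 in DHA + LPS and 289 to 8109 in cpdA + LPS, and Ndufa4 at 2892 to 3168, 2696 to 3172 and 2780 to 3062. AA467197 was thus above Ndufa4 per length in 8 of 9 libraries and below it in cpdA 3. Its change was -0.44 (SE 1.08; limma adjusted p = 0.878) with DHA and -1.78 (SE 1.08; limma adjusted p = 0.470) with cpdA. Without cpdA 3 the cpdA change was -0.21 (SE 0.32; limma adjusted p = 0.826).

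Complex V, the ATP synthase, had the highest gene of the set. Atp5b, the catalytic beta subunit, had 18801, 18190 and 16573 in LPS, 18687, 15886 and 16885 in DHA + LPS and 18144, 17547 and 12804 in cpdA + LPS. The groups overlapped and cpdA 3 was lowest, with a change of -0.06 (SE 0.16; limma adjusted p = 0.892) with DHA and -0.16 (SE 0.16; limma adjusted p = 0.679) with cpdA, the latter 0.00 without cpdA 3. Atp5o, the stalk subunit that confers oligomycin sensitivity, averaged 1639 ± 21.5 in LPS and, with DHA, 1515 ± 44.1 (SD, n = 3). All 3 DHA libraries lay under all LPS libraries, with a change of -0.11 (SE 0.10; limma adjusted p = 0.630). Atp5c1, the central stalk subunit, had -0.14 between cpdA and DHA (SE 0.10; limma adjusted p = 1).

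Most changes of the 12 genes listed as TCA cycle enzymes were positive. They include 2 forms from outside the matrix, Idh1 (1.06 with DHA and 0.35 with cpdA) and Mdh1 (0.13 and 0.09). With DHA 11 of 12 were positive (median 0.13, from -0.03 to 1.06) and with cpdA 9 of 12 (median 0.11, from -0.13 to 0.67), while the 38 genes of the chain had medians of -0.02 and -0.05. Over all 13895 genes 6926 were positive with DHA and 6865 with cpdA. None of the 12 passed the test. At an unadjusted limma p under 0.05 there were 4 for DHA, beside 14.2% of all genes, and 1 for cpdA, beside 14.6%. Idh1, whose groups overlapped, was among the 4. The difference between the roles was not tested. In LPS 3 the median deviation of the 12 enzymes was -0.24, and -0.00 and -0.01 in LPS 1 and LPS 2. Without LPS 3 and cpdA 3 the TCA medians were 0.06 with DHA and 0.07 with cpdA, and those of the 38 chain genes -0.07 and -0.03.

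Idh2 had 429, 431 and 439 in LPS, 606, 854 and 614 in DHA + LPS and 604, 537 and 1003 in cpdA + LPS. Each treated library lay above each LPS library, and DHA 2 and cpdA 3 were the highest. The change was 0.66 (SE 0.22; 95% interval 0.15 to 1.16; limma adjusted p = 0.286) with DHA and 0.67 (SE 0.22; 95% interval 0.16 to 1.17; limma adjusted p = 0.252) with cpdA. Without cpdA 3 the cpdA change was 0.39 (SE 0.15; limma adjusted p = 0.360), over 1.5 times smaller.

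Idh1 (Entrez 15926), the NADP-linked isocitrate dehydrogenase of cytosol and peroxisomes, which supplies NADPH for lipid synthesis, had 1182, 1140 and 600 in LPS, 1054, 3243 and 2132 in DHA + LPS and 1008, 1047 and 1596 in cpdA + LPS. DHA 1 lay among the LPS libraries, as did cpdA 1 and cpdA 2, so the groups overlapped. The change was 1.06 (SE 0.41; 95% interval 0.13 to 1.99; limma adjusted p = 0.312) with DHA, 0.35 (SE 0.41; limma adjusted p = 0.726) with cpdA and -0.70 (SE 0.41; limma adjusted p = 1) between them. Without LPS 3 and cpdA 3 these were 0.74, -0.18 and -0.92. Pparg, the fatty acid-sensing nuclear receptor of macrophages and fat cells, was high in the same libraries, with 75.0, 62.2 and 75.7 in LPS, 89.2, 471 and 264 in DHA + LPS and 79.4, 68.9 and 320 in cpdA + LPS. The link of the 2 genes was not tested.

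Fh1 (Entrez 14194), fumarase, had 663, 543 and 538 in LPS, 754, 754 and 720 in DHA + LPS and 675, 640 and 600 in cpdA + LPS. The DHA libraries lay above all LPS and all cpdA libraries, which overlapped each other. Its change was 0.36 (SE 0.10; 95% interval 0.13 to 0.59; limma adjusted p = 0.247) with DHA, 0.14 (SE 0.10; limma adjusted p = 0.553) with cpdA and -0.22 (SE 0.10; limma adjusted p = 1) between them. Suclg1 (Entrez 56451), the shared alpha subunit of succinyl-CoA ligase, had 915, 841 and 782 in LPS, 1059, 999 and 1009 in DHA + LPS and 970, 958 and 893 in cpdA + LPS. The DHA libraries again lay above the other 6, with 0.28 (SE 0.09; limma adjusted p = 0.263) with DHA, 0.15 (SE 0.09; limma adjusted p = 0.428) with cpdA and -0.12 (SE 0.09; limma adjusted p = 1) between them. Cs, citrate synthase, the entry of the cycle and its gene with the highest mean value, had 6442, 6749 and 5721 in LPS, 7006, 5733 and 6327 in DHA + LPS and 6961, 6767 and 4601 in cpdA + LPS, with 0.01 and -0.07 (limma adjusted p = 0.985 and 0.894). The NAD-linked subunit Idh3b was the steadiest member, at 1587 to 1712 in all 9 libraries.

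**Figure D4:**
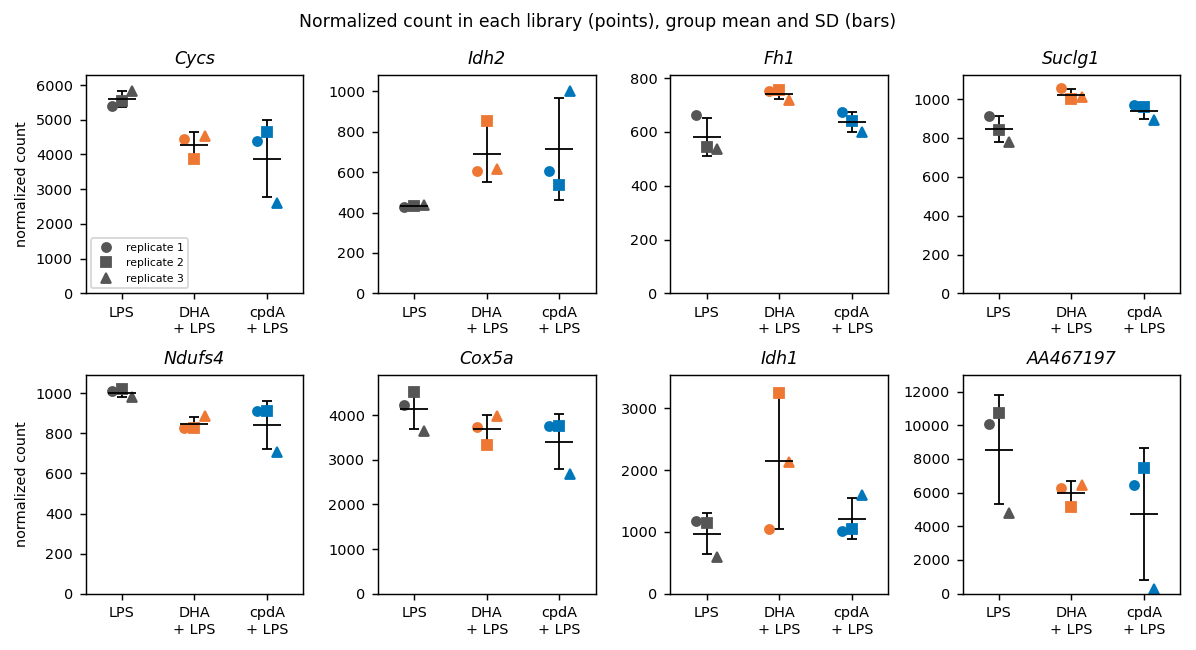
Normalized count in each library (points, shaped by replicate number) for Cycs, Idh2, Fh1, Suclg1, Ndufs4, Cox5a, Idh1 and AA467197 in LPS, DHA + LPS and cpdA + LPS, with group mean and SD (bars, n = 3); each axis starts at 0. Treated libraries lie under LPS for Cycs and Ndufs4 and above it for Idh2, and replicate 3 of cpdA + LPS stands far from its group for Cycs, Idh2 and AA467197.

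In all, groups without overlap between DHA + LPS and LPS were found for 3 members higher (Fh1, Idh2 and Suclg1) and 5 lower (Atp5o, Cycs, Ndufs3, Ndufs4 and Uqcrc2), that is 6% and 10% of 50 beside 13.0% and 15.0% of all genes. Between cpdA + LPS and LPS they were 4 higher (Idh2, Ndufb10, Ndufs1 and Ndufs7) and 4 lower (Cycs, Ndufs3, Ndufs4 and Uqcrc2), beside 10.7% and 12.2% of all genes. Between cpdA + LPS and DHA + LPS none was higher and 2 were lower (Fh1 and Suclg1), beside 3.04% and 2.61%. The shares of members were under those of all genes in both comparisons with LPS, but these counts are too small to be a result about the members. The 2 members of the last comparison are likewise too few to read against 2.61%.

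A fit without LPS 3 and cpdA 3 gave other calls. Both libraries stood apart in these same data, and LPS 1 and LPS 2 alone remained as controls. The adjusted p-values of that fit are therefore no separate support. For DHA, Idh2 rose by 0.66 (SE 0.14; limma adjusted p = 0.0171) and Cycs fell by 0.36 (SE 0.09; limma adjusted p = 0.0388), 1 of 50 in each direction beside 2.75% of all genes higher and 4.04% lower. LPS 3, left out here, had 439 for Idh2, next to LPS 1 and LPS 2, and 5840 for Cycs, above both. With cpdA 3 alone left out, which changes the spread but not the DHA change, Idh2 was called (limma adjusted p = 0.0389) and Cycs was not (limma adjusted p = 0.0540), beside 1.11% of all genes higher and 1.58% lower. For cpdA no member was called, beside 0.712% of all genes higher and 0.885% lower. Idh2 was then at 0.40 (SE 0.15; limma adjusted p = 0.303) and Cycs at -0.28 (SE 0.10; limma adjusted p = 0.278). For cpdA against DHA no member was called, beside 0% and 0%. AA467197 fell by 0.81 with DHA and fell by 0.58 with cpdA in that fit (limma adjusted p = 0.00214 and 0.0398). LPS 3, with 4810, lay under all DHA libraries. Leaving out either library alone gave neither call. Without LPS 3 the changes were -0.81 (SE 1.26; limma adjusted p = 0.849) and -2.15 (SE 1.26; limma adjusted p = 0.551). Without cpdA 3 they were -0.44 (SE 0.29; limma adjusted p = 0.401) and -0.21 (SE 0.32; limma adjusted p = 0.826).

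Comparing cpdA + LPS with DHA + LPS sets 10 µM of one compound beside 100 µM of another, so the doses differ. The interval of the difference lay within 1.5-fold for all members but Cycs (-0.63 to 0.27) and Idh1 (-1.63 to 0.23). Of the 50 changes 37 were negative, beside 7581 of 13895 over all genes. In cpdA 3, 45 members lay under their mean. Without LPS 3 and cpdA 3 the median was 0.03, beside 0.02 over all genes. The part of cpdA 3 in these changes was not tested.

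The 45 other nuclear genes of the same complexes and of the cycle had medians of 0.01 with DHA, -0.02 with cpdA and -0.04 between them, with none called. Of 18 further complex I genes 11 and 8 were positive with DHA and cpdA, of 4 in complex III 1 and 2, of 6 in complex IV 2 and 1 and of 13 in complex V 6 and 5. All 4 further TCA genes were positive with both (medians 0.15 and 0.10), among them Suclg2, the GTP-forming beta subunit of succinyl-CoA ligase, at 0.52 (SE 0.28; limma adjusted p = 0.413) with DHA, and Idh3g at 0.16 (limma adjusted p = 0.450). In complex V, Atp5s, coupling factor B, had 32.6, 35.7 and 44.0 in LPS and 56.1, 54.9 and 73.3 in cpdA + LPS, a change of 0.70 (SE 0.23; limma adjusted p = 0.252). Of 6 alternative subunits, 4 were in the table and 0 were called. Cox6a2, the heart and muscle form of a complex IV subunit, was low throughout, with 9.2 to 25.0 in LPS, 22.6 to 33.4 in DHA + LPS and 29.5 to 32.6 in cpdA + LPS, and changes of 0.79 and 0.96 (limma adjusted p = 0.351 and 0.268).

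Genes that feed and drain the cycle gave 0 calls as well. Of 12 genes of pyruvate entry, 7 were positive with DHA and 6 with cpdA. Pcx, pyruvate carboxylase, which refills oxaloacetate, had 50, 34.6 and 29.7 in LPS, 75.8, 65.4 and 77.9 in DHA + LPS and 79.4, 55.8 and 124 in cpdA + LPS. Every treated library lay above every LPS library, with changes of 0.95 (SE 0.31; limma adjusted p = 0.267) and 1.12 (SE 0.31; limma adjusted p = 0.224). Pcx and Slc25a1 were picked by smallest p within their lists. Between LPS and 1 treated group, 10.7% to 15.0% of all genes had no overlap in a given direction. Of 12 genes of cycle exits and itaconate, 7 and 8 were positive. Slc25a1, the citrate carrier of the inner membrane, had 2796, 2741 and 2358 in LPS, 2113, 1949 and 2008 in DHA + LPS and 2237, 2237 and 1575 in cpdA + LPS. All treated libraries lay under LPS, with -0.38 (SE 0.14; limma adjusted p = 0.302) and -0.40 (SE 0.14; limma adjusted p = 0.266). Me1, the cytosolic malic enzyme, had 143, 143 and 141 in LPS and 172, 226 and 211 in cpdA + LPS, a change of 0.50 (SE 0.15; limma adjusted p = 0.231). Irg1, which makes itaconate from cis-aconitate, had 167700, 169039 and 137691 in LPS, 151806, 102447 and 130610 in DHA + LPS and 150309, 146293 and 65130 in cpdA + LPS, with -0.31 and -0.48 (limma adjusted p = 0.682 and 0.516). Its cpdA change was -0.09 (SE 0.18; limma adjusted p = 0.881) without cpdA 3, and its DHA change -0.16 without DHA 2. The cpdA change of Slc25a1 was -0.23 (SE 0.10; limma adjusted p = 0.403) without cpdA 3.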

How the data were processed

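The authors deposited 1 table of signal values, 1 per gene and library for 9 libraries, grouped by their titles. Each value is a read count over a size factor of its library, which the steps between low values show. Per the submitters' processing notes the tools were CASAVA 1.8.2, Bowtie2 and DESeq on build mm9. Counting program, annotation, kit and strandedness: not given in the sources used here. Hence overlapping and antisense genes and reads shared with pseudogenes cannot be told apart. Growth and extraction texts of the labels concern other experiments and were not used.

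The unit was planned as normalized values, and limma 3.58.1 (R 4.3.3) was run on log2(value + 1), with trend and robust options, 1 mean per group and all 9 libraries in 1 fit. Genes had a value of at least 10 in at least 3 libraries. A log2 change on this scale understates that of low genes. P-values were Benjamini-Hochberg adjusted over 13895 genes, with a threshold of 0.05. In each library 100% of the low values tested were whole reads within 0.05. Those reads were tested with edgeR 4.0.16 and DESeq2 1.42.0, which called 3 and 315 genes for DHA, 1 and 391 for cpdA and 0 and 0 between them. The fits were also tested on simulated data.

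Members and lists were chosen with earlier results of these data known. The text names the member with the smallest p and the one with the highest mean in each role and comparison, the 3 highest and 3 lowest changes, Idh1, Ndufa4 and AA467197. It also names at most 2 genes per further list and comparison, by smallest p. Other genes named, such as members without overlap between groups, Irg1 and the genes called without LPS 3 and cpdA 3, were chosen after their values were seen, as were the motifs and the promoters printed. Of 239 entries in 13 further lists 236 were in the table. Transcripts of the mitochondrial genome are not analysed here. Other settings were pseudocounts of 0.5 and 8, no filter and one of 50, TMM and median-of-ratios scaling, no trend or robust option, only the groups compared, a replicate block, each library left out and LPS 3 and cpdA 3 left out.

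What the replicate numbers mark is not stated in the labels. Deviations of same-number libraries from their group means correlated across genes at 0.387, 0.234 and 0.437 between LPS and cpdA, over 0.1 in all 3 pairs. Same-number libraries of the other groups gave 0.14, -0.0654 and 0.0199 (LPS with DHA) and 0.407, -0.345 and 0.013 (DHA with cpdA). Libraries of different numbers exceeded 0.1 too. They were LPS 2 with cpdA 1 (0.292), LPS 1 with cpdA 2 (0.264), LPS 3 with DHA 2 (0.129) and DHA 1 with cpdA 2 (0.26). DHA 2 with cpdA 3 (0.452) was the highest of all. Pairing is thus not settled. The main fit did not pair libraries, and the replicate block was run only as an alternative.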

Additional observations from a re-analysis of the deposited data

How the results depend on the processing

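The count of members called was 0 in all 3 comparisons under every setting but 2. Leaving out 1 library gave 0 to 1 for DHA, the 1 being Idh2 without cpdA 3, and leaving out LPS 3 and cpdA 3 gave 2 (Idh2 and Cycs). The median member change ranged from -0.05 to 0.05 for DHA, -0.08 to 0.04 for cpdA and -0.09 to 0.03 between them with 1 library left out, so its sign is not settled. Over all genes, DHA calls (1) were 3 with the filter of 50, 3 with TMM, 0 with no trend or robust option, 3 with edgeR, 315 with DESeq2, 9 with only the groups compared, 0 with the replicate block, 0 to 373 with 1 library left out (2 without LPS 3, 373 without cpdA 3, 0 without any other) and 943 without LPS 3 and cpdA 3. For cpdA (1) they were 0 with no trend or robust option, 391 with DESeq2, 0 with only the groups compared, 0 with the replicate block, 0 to 3 with 1 library left out (3 without cpdA 3, 2 without DHA 2, 1 without LPS 3, 0 without any other) and 222 without LPS 3 and cpdA 3. The replicate block changed no call of a member. The cause of these shifts was not tested.

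Signs turned, with 1 library left out, for Ndufa4 with DHA (-0.08 to 0.03), Atp5b with cpdA (-0.25 to 0.00), and, between cpdA and DHA, for AA467197 (-2.18 to 0.23), Cycs (-0.34 to 0.08), Ndufa4 (-0.11 to 0.01), Ndufs7 (-0.05 to 0.16) and Uqcrq (-0.05 to 0.21). Without LPS 3 and cpdA 3, Idh1 was at -0.18 with cpdA, AA467197 at 0.23 and Cycs at 0.08 between cpdA and DHA. Of the values of 34 single-gene changes, the other 698 kept direction and side of the threshold, and 5 became calls. Those changes leave out members named for their highest mean alone, such as Cs (-0.06 to 0.08 with DHA and -0.17 to 0.13 with cpdA with 1 library left out) and Cox4i1 (-0.07 to 0.06 and -0.08 to 0.10), whose signs also turned. With 3 libraries a group the median member's standard error of 0.11 limits what can be seen.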

Other observations

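Further mitochondrial genes gave 0 calls over all genes in each comparison with all 9 libraries (limma, adjusted p under 0.05). Most genes named below were picked by smallest p within their lists. Groups without overlap between LPS and 1 treated group were found for 10.7% to 15.0% of all genes in a given direction. Of 75 genes of the mitochondrial ribosome, which translates the subunits encoded in mitochondrial DNA, 47 were negative with DHA (median -0.05) and 45 with cpdA (median -0.03). Mrps22, of its small subunit, had 337, 364 and 352 in LPS, 267, 241 and 289 in DHA + LPS and 315, 289 and 233 in cpdA + LPS, with -0.40 (SE 0.13; limma adjusted p = 0.276) and -0.34 (SE 0.13; limma adjusted p = 0.294), and every treated library lay under every LPS library. Of 27 assembly factors, 17 and 16 were negative. Sco1, a copper chaperone needed to build complex IV, had 802, 663 and 1119 in LPS, 531, 475 and 509 in DHA + LPS and 532, 535 and 360 in cpdA + LPS. Its treated libraries lay under all LPS libraries, with -0.74 (SE 0.21; limma adjusted p = 0.247) and -0.84 (SE 0.21; limma adjusted p = 0.224). Cox15, which makes the heme of complex IV, was at -0.34 with cpdA (SE 0.13; limma adjusted p = 0.293).

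Of 21 genes of mitochondrial import and chaperones, 12 and 13 were positive. Tomm20, an import receptor of the outer membrane, had 2716, 2705 and 2195 in LPS, 3143, 3169 and 3170 in DHA + LPS and 3207, 3309 and 3072 in cpdA + LPS, with 0.32 (SE 0.10; limma adjusted p = 0.267) and 0.34 (SE 0.10; limma adjusted p = 0.231). All 6 treated libraries lay above the 3 LPS libraries. Of 19 transporters and redox genes, 13 and 11 were positive. Etfdh and Etfb pass electrons from fatty acid oxidation to ubiquinone. Etfdh had 519, 527 and 491 in LPS, 646, 674 and 642 in DHA + LPS and 595, 550 and 693 in cpdA + LPS, and Etfb had 716, 735 and 492, then 1052, 969 and 881, then 989, 938 and 748. Both had treated libraries above all LPS libraries, with 0.35 and 0.60 for DHA (SE 0.10 and 0.17; limma adjusted p = 0.247 for each). For cpdA Etfb was at 0.47 (SE 0.17; limma adjusted p = 0.266). Of 17 regulators of mitochondrial biogenesis, 10 and 11 were positive. Ppard had the smallest p of them with cpdA, at 0.40 (SE 0.15; limma adjusted p = 0.285), and 0.30 (SE 0.15; limma adjusted p = 0.404) with DHA. Its cpdA change was 0.28 without LPS 3 and cpdA 3. Esrra, an estrogen-related receptor that binds many respiratory chain genes, had 1735, 1672 and 1690 in LPS, 1567, 1255 and 1313 in DHA + LPS and 1651, 1507 and 1297 in cpdA + LPS, with -0.31 (SE 0.12; limma adjusted p = 0.300) and -0.20 (SE 0.12; limma adjusted p = 0.444).

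Without LPS 3 and cpdA 3, limma called 8 of the 232 genes of these and the earlier lists for DHA, 2 higher (0.862%) and 6 lower (2.59%) beside 2.75% and 4.04% of all genes: Etfb rose by 0.41 and Etfdh rose by 0.32, while Sco1 fell by 0.53, Slc25a1 fell by 0.45, Acly, the enzyme that splits cytosolic citrate, fell by 0.39, Prdx5, a peroxiredoxin, fell by 0.55, Mrpl54, of the large mitochondrial ribosomal subunit, fell by 0.46 and AA467197 fell by 0.81 (adjusted p = 0.0235, 0.0492, 0.0124, 0.00543, 0.0169, 0.0322, 0.0150 and 0.00214). For cpdA it called AA467197 alone, 0.431% of them lower beside 0.885% of all genes. In LPS 3, the control left out, Etfb was at 492, under all DHA libraries, Sco1 at 1119 and Slc25a1 at 2358, both above them, and Acly at 5823, under them. The summed markers of resident peritoneal macrophages and neutrophils, mostly Serpinb2 and Csf3r, also lay apart between LPS and the treated groups, and their part was not tested. Without cpdA 3 the cpdA changes were -0.22 for Mrps22, -0.19 for Cox15 and -0.11 for Esrra, and without LPS 3 that of Etfb was 0.29, each over 1.5 times smaller than with all libraries.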
